A study of Mus musculus with 2 samples.

Results

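The 10 genes described here encode RNA-binding proteins that set the splicing programme of developing neurons: Ptbp1, Ptbp2, Rbfox1, Rbfox2, Rbfox3, Nova1, Srrm3, Srrm4, Celf3 and Elavl4. They were chosen by symbol among the 32285 genes of the deposited tables, by a rule that uses no measured value, though with earlier results of these data known, and all 10 were found and tested. The values come from 2 single-cell RNA-seq libraries of dorsal telencephalon from wild-type (WT) mouse embryos at embryonic day 14.5. The libraries are called replicate 2 and replicate 4 here, after the last digit of their titles. The titles otherwise share a number whose meaning is not stated in the sources used here. Both belong to 1 group, with no treatment in the labels, so that the comparisons below are between cell classes within the same libraries and not between animals of different genotype. The titles name the EomesDot line and the methods describe C57BL/6J mice; how these relate, and how many embryos a library holds, is not stated in the sources used here. The p-values therefore measure the spread between 2 libraries.

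As background, PTBP1 is a repressor of neuronal exons that is made in progenitors and in most non-neural cells. It also represses an exon of its paralog Ptbp2, so that PTBP2 protein accumulates as PTBP1 is lost, and this exchange is known as the Ptbp switch. In neurons the microRNA miR-124 targets Ptbp1, while REST, a repressor of neuronal genes, holds down Srrm4 in non-neural cells. SRRM4 and its paralog SRRM3 activate neural microexons, RBFOX1, RBFOX2 and RBFOX3 (the antigen NeuN) bind the same motif near regulated exons, NOVA1 and CELF3 are further splicing regulators, and ELAVL4 (HuD) binds AU-rich and U-rich RNA. The libraries count transcripts from their 3′ ends, so that the values below are total levels of each gene's RNA and say nothing of which exons were used.

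Sequences around the annotated transcription start were available for 9 of the 10 members (all except Rbfox2) in RefSeq windows of GRCm38.p6, the assembly that mm10 names, each running from 250 bases before to 50 bases after the start. The windows were searched on both strands for 2 E-box motifs, CAGATG (reverse complement CATCTG) and the palindrome CAGCTG, E-boxes being the sites bound by basic helix-loop-helix factors such as NEUROG2. Of 32851 windows of all genes, 17.2% held CAGATG and 16.3% held CAGCTG. The 9 members had 19 windows, several of them overlapping alternative starts of Celf3 and Elavl4, and 9 of these held CAGATG and 8 CAGCTG. Overlapping windows count the same site more than once. Counted by gene, 5 of the 9 members had a window with CAGATG and 5 a window with CAGCTG. The windows of Ptbp1, Ptbp2 and Srrm4 are shown because the RNA of these 3 genes followed 3 different courses between radial glia and neurons. Capitals mark the motifs, and a match is only a run of letters.
Ptbp1, chr10:79854182-79854481, plus strand: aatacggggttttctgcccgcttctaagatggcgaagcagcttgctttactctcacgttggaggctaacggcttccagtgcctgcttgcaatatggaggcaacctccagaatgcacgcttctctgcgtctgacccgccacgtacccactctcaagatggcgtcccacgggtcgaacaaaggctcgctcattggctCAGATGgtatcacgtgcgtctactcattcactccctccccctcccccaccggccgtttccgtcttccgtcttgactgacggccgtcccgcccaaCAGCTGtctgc
Ptbp2, chr3:119783339-119783638, minus strand: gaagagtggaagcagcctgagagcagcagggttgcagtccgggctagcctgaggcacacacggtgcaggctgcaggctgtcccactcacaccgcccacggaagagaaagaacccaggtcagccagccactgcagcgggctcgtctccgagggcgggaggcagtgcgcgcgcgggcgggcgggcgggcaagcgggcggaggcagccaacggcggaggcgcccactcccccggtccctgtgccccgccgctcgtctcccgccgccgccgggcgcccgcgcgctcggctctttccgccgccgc
Srrm4, chr5:116591768-116592067, minus strand: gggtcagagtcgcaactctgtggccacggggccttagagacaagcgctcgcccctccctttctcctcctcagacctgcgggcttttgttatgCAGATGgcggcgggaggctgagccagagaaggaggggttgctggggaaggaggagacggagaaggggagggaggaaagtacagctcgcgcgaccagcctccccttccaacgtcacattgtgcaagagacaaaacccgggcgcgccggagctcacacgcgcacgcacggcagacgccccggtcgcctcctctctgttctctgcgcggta
In the Ptbp1 window CAGATG began 55 bases before the start site and CAGCTG 39 bases after it. The Srrm4 window held CAGATG 158 bases before the start, and neither motif was found in the Ptbp2 window. The genes differ much in length: Ptbp1 spans 10.0 kb and Celf3 18.5 kb, whereas Rbfox3 spans 422 kb and Rbfox1 1528 kb, and whether intronic reads were counted is not given in the sources used here.

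The libraries held 1712 and 2589 barcodes with 40267872 and 49422007 UMIs (unique molecular identifiers, each marking 1 captured transcript), and 1199 and 1923 cells were retained. Only 3 barcodes were shared by both. Cells were clustered without the 10 members, and clusters were named from marker genes. The comparisons use 237 and 405 cells like radial glial cells (RGC-like, replicates 2 and 4), 150 and 224 like intermediate progenitor cells (IPC-like), 525 and 789 excitatory neuron-like cells and 54 and 83 like interneurons of the medial ganglionic eminence (MGE). Summed, the 12 RGC markers reached 5735 and 4853 CPM (UMIs scaled to a class total of 1000000) in RGC-like cells against 284 and 272 in excitatory neuron-like cells, and the 8 GABAergic markers 2865 and 2791 CPM in MGE interneuron-like cells against at most 13.3 in the other 3 classes. The 13 excitatory neuron markers rose more gradually, with 3630 and 4192 CPM in the RGC-like class, 7278 and 9667 in the IPC-like class and 14438 and 15498 in excitatory neuron-like cells. Replicate 2 was deeper, with class medians from 23451 to 34745 UMIs per cell against 10880 to 26922 in replicate 4. Ribosomal protein genes took 12.2% and 11.4% of UMIs in RGC-like cells and 12.7% and 10.7% in the IPC-like class, but 7.89% and 6.84% in excitatory neuron-like and 4.61% and 3.25% in MGE interneuron-like cells. The part of RNA content or depth in the class differences was not tested.

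Clusters with markers of more than 1 class have to be named before the results. In the RGC-like class, cluster 7 (59 and 108 cells) was led by cell-cycle genes such as Ube2c, Top2a and Mki67. It had all 12 RGC markers raised, but also 6 of 8 IPC and 4 of 13 excitatory neuron markers. The comparisons with RGC-like cells were therefore repeated without this cluster, an alternative added after the data had been seen. Both IPC-like clusters also had 6 of 13 excitatory neuron markers raised, beside 7 of 8 IPC markers in cluster 0 and 5 of 8 in cluster 4, and the class was not tested without them. RGC markers were raised in these clusters too, 6 of 12 in cluster 0 and 2 of 12 in cluster 4. Adjusted p-values are from edgeR's quasi-likelihood test over 12251 genes with Benjamini-Hochberg adjustment, those of an alternative being over the genes tested in it (12275 without cluster 7), genes under 0.05 were called, and ± is the SD over 2 libraries for levels and the standard error for log2 fold changes.

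The first question was whether the Ptbp exchange was visible in RNA levels. Ptbp1 fell at each step from radial glia to neurons, while Ptbp2 RNA did not pass the test in any of the 5 comparisons made. Ptbp1 was at 84.7 and 87.2 CPM in RGC-like cells, 40.2 and 37.8 in IPC-like cells, 14.7 and 13.8 in excitatory neuron-like cells and 10.4 and 8.98 in MGE interneuron-like cells (replicates 2 and 4). The 4 pairs of values did not overlap. The log2 fold change was -1.09 ± 0.131 from RGC-like to IPC-like cells (adjusted p = 5.2e-05), -1.30 ± 0.135 from IPC-like to excitatory neuron-like cells (adjusted p = 1.86e-05) and -2.39 ± 0.132 over both steps, or 5.25-fold lower (adjusted p = 5.82e-08). MGE interneuron-like cells, which arise from other progenitors, lay 8.01-fold below RGC-like cells (log2 -3.00 ± 0.191, adjusted p = 2.23e-07) and did not differ from excitatory neuron-like cells by the test (log2 -0.61, 95% confidence interval -1.07 to -0.15, adjusted p = 0.121). Without cluster 7 the Ptbp1 values against RGC-like cells were -1.09, -2.39 and -3.00, and the gene passed the test under each of the 13 or 14 alternatives tried in all comparisons but that between both neuronal classes.

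Ptbp2 RNA was at 315 and 348 CPM in RGC-like, 380 and 429 in IPC-like, 285 and 306 in excitatory neuron-like and 303 and 295 in MGE interneuron-like cells. The highest of the 4 was IPC-like in both libraries, and the levels of both neuronal classes overlapped. Between excitatory neuron-like and RGC-like cells the log2 difference was 0.03, with a 95% confidence interval from -0.34 to 0.40 (adjusted p = 0.892), although the CPM were lower in both libraries of the former. The fitted value is on counts scaled by TMM factors, the CPM are not. With DESeq2 size factors it was -0.05. Between MGE interneuron-like and RGC-like cells it was -0.01, with an interval from -0.39 to 0.37 (adjusted p = 0.958). The steps into and out of IPC-like cells, 0.34 (-0.04 to 0.71, adjusted p = 0.153) and -0.30 (-0.68 to 0.07, adjusted p = 0.202), did not pass the test either. The first was called under 2 of 13 alternatives and the second under 1 of 13. Each of these 4 intervals ended below a log2 rise of 1.

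The share of Ptbp2 among the UMIs of both paralogs compares the classes without any scaling. It was 79.4% ± 0.845 in RGC-like, 91.2% ± 1.04 in IPC-like, 95.4% ± 0.414 in excitatory neuron-like and 96.9% ± 0.265 in MGE interneuron-like cells. Interneuron-like cells of the caudal ganglionic eminence (CGE, 22 and 38 cells) were at 96.9% ± 0.165, Cajal-Retzius cell-like cells (16 and 24 cells) at 89.6% ± 2.98 and meningeal fibroblast-like cells (19 and 31 cells) at 63.4% ± 2.36. Of these 7 classes the meningeal one had the lowest share and both interneuron classes the highest. Ptbp1 in meningeal fibroblast-like cells was at 75.4 and 79.8 CPM, just below RGC-like cells, and in endothelial-like cells (9 and 18 cells) at 119 and 125 CPM, where Ptbp2 was at 123 and 92.1 CPM.

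Counted per cell, at 5000 UMIs drawn from each cell, 35.8% ± 2.50 of RGC-like cells held a Ptbp1 UMI, 15.7% ± 1.15 of IPC-like, 7.54% ± 1.14 of excitatory neuron-like and 5.89% ± 2.99 of MGE interneuron-like cells. At full depth these shares were 83.6%, 61.5%, 33.2% and 16.5%. No class here is known to lack Ptbp1, and free RNA in the droplets may add to the low shares. Ptbp2 was detected in 82.2% ± 1.08, 84.4% ± 2.27, 74.4% ± 1.11 and 73.2% ± 2.10 of cells of these classes after thinning, and in 93.0% to 98.4% at full depth. Both paralogs were found together in 29.3% and 27.3% of RGC-like, 13.8% and 14.0% of IPC-like, 4.81% and 6.26% of excitatory neuron-like and 1.89% and 6.67% of MGE interneuron-like cells. Cells with Ptbp1 alone were few in every class of the excitatory lineage, at most 8.30%, which in thinned counts does not show that Ptbp2 was absent from them. The cells left out as too shallow were 25 RGC-like, 8 IPC-like, 27 excitatory neuron-like and 9 MGE interneuron-like cells, and 2 meningeal fibroblast-like and 6 endothelial-like cells of replicate 4.

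**Figure D1:**
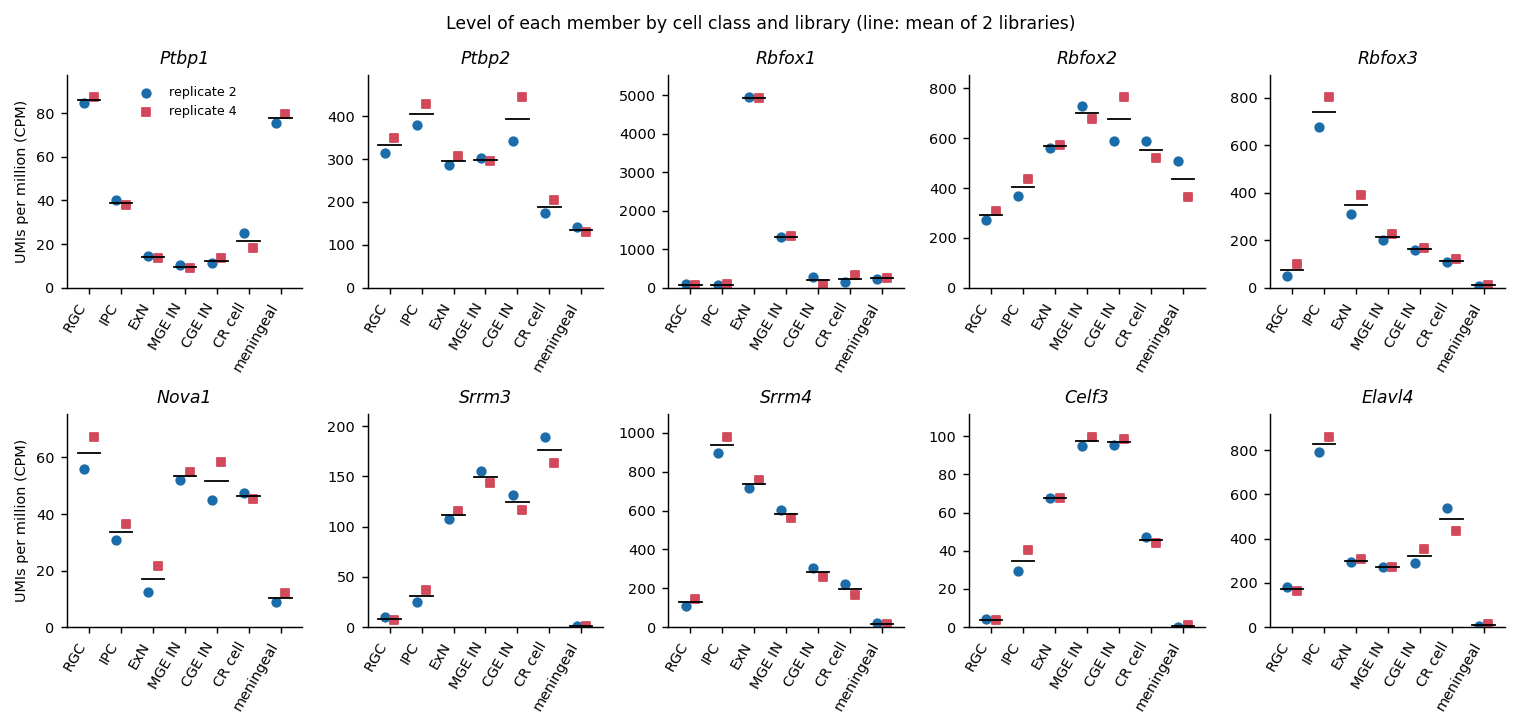
Level of each of the 10 genes in 7 cell classes, in CPM (linear axes from 0). Circles are replicate 2, squares replicate 4 and lines their mean. Ptbp1 fell from 86.0 CPM in RGC-like to 14.3 in excitatory neuron-like (ExN) cells, whereas Ptbp2 stayed between 296 and 404 CPM over the 4 compared classes.

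Among the RBFOX genes, each had its own course. Rbfox1, whose product acts on exons of synaptic and channel genes, was far higher in both neuronal classes than in either progenitor class. It was at 91.9 and 62.4 CPM in RGC-like, 62.1 and 99.1 in IPC-like, 4945 and 4921 in excitatory neuron-like and 1314 and 1350 in MGE interneuron-like cells. Excitatory neuron-like cells exceeded IPC-like cells by 6.08 ± 0.496 (log2, adjusted p = 3.67e-06) and MGE interneuron-like cells by 1.95 (MGE minus excitatory -1.95 ± 0.411, adjusted p = 0.00545). RGC-like and IPC-like values overlapped (log2 0.12 ± 0.404, adjusted p = 0.857). This last value moved under several alternatives, from 0.07 to 4.70 over all 13, and was called under 8 of them. It depended on cluster 7, where Rbfox1 was at 423 and 239 CPM against 6.22 to 11.0 in the other RGC-like clusters. Without cluster 7 the RGC-like level was 7.04 and 10.5 CPM, and the step to IPC-like cells became 3.24 (adjusted p = 0.000125) and that to excitatory neuron-like cells 9.32 (adjusted p = 7.65e-08). Among all genes, those spanning over 100 kb had a median log2 difference of 0.22 between excitatory neuron-like and RGC-like cells and shorter ones 0.00, and the part of gene length in the result was not tested.

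Rbfox2, the paralog made in the widest range of tissues, was found in every class and had the smallest fold of the 3 between neurons and RGC-like cells. It was at 272 and 310 CPM in RGC-like, 368 and 438 in IPC-like, 562 and 574 in excitatory neuron-like and 730 and 676 in MGE interneuron-like cells. Levels rose in this order with no overlap between classes. The rise over both steps of the excitatory lineage was 1.16 ± 0.206 (adjusted p = 0.000455), the second step was 0.64 ± 0.205 (adjusted p = 0.0305), and the first, 0.52 ± 0.205, missed the threshold (adjusted p = 0.0663) but was 0.60 without cluster 7 (adjusted p = 0.0336). Over all alternatives this first step was called under 7 of 13. Endothelial-like cells had a Rbfox2 UMI in 81.9% ± 9.82 of the 9 and 12 cells deep enough to thin, against 68.7% ± 5.20 of RGC-like cells.

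Of the 4 classes Rbfox3 was highest in IPC-like cells. Its levels were 49.5 and 102 CPM in RGC-like, 676 and 802 in IPC-like, 309 and 392 in excitatory neuron-like and 203 and 227 in MGE interneuron-like cells. The rise into IPC-like cells was 10.1-fold (log2 3.34 ± 0.310, adjusted p = 8.82e-06), followed by a fall into excitatory neuron-like cells of -0.93 ± 0.284 (adjusted p = 0.025). Excitatory neuron-like cluster 3, at 666 and 688 CPM, lay within the range of IPC-like cluster 0, at 589 and 781. The fall was not called under 5 of 13 alternatives, and over all 13 it ran from -1.28 to -0.26. The RGC-like value came mainly from cluster 7, at 209 and 424 CPM against 0 to 17.8 in clusters 6 and 8. Without cluster 7 the RGC-like level was 8.58 and 6.95 CPM, the rise into IPC-like cells 6.63 and the difference of excitatory neuron-like from RGC-like cells 5.70 in place of 2.41. MGE interneuron-like cells were lower than excitatory neuron-like cells by a log2 difference of -0.77 (adjusted p = 0.0875), which passed the test with the library as a block (adjusted p = 0.026).

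After thinning, 11.6% ± 2.19 of RGC-like cells had a Rbfox3 UMI, against 6.99% ± 5.0 of meningeal fibroblast-like and 5.56% ± 7.86 of endothelial-like cells, classes that should lack the gene (medians of 39628 and 26136 and of 16901 and 16685 UMIs in them against 32221 and 26922 in RGC-like cells). That background rests on 2 of 19 and 1 of 29 meningeal fibroblast-like and 1 of 9 and 0 of 12 endothelial-like cells, too few to tell the RGC-like share from it. In IPC-like cells it was 87.7% ± 4.01, in excitatory neuron-like cells 73.8% ± 6.77 and in MGE interneuron-like cells 50.5% ± 2.08. At full depth the shares were 15.6%, 97.6%, 96.5% and 75.4%, against 6.88% in meningeal fibroblast-like and 27.8% in endothelial-like cells.

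The microexon regulators Srrm4 and Srrm3 rose by different routes. Srrm4 was at 110 and 147 CPM in RGC-like, 894 and 980 in IPC-like, 716 and 756 in excitatory neuron-like and 601 and 563 in MGE interneuron-like cells. The rise fell on the first step, 7.54-fold (log2 2.92 ± 0.213, adjusted p = 2.05e-06), with no further rise to excitatory neuron-like cells (-0.20, interval -0.63 to 0.23, adjusted p = 0.478). Here too cluster 7 held most of the RGC-like signal, at 408 and 542 CPM against 5.03 to 63.4 in clusters 6 and 8, and the first step was 4.91 without it. Thinned RGC-like cells had a Srrm4 UMI in 20.9% ± 1.1 and IPC-like cells in 97.4% ± 1.16, against 6.99% ± 5.0 of meningeal fibroblast-like cells. These shares were 33.1%, 99.8% and 12.1% at full depth.

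Srrm3 was at 9.63 and 6.63 CPM in RGC-like, 24.7 and 36.8 in IPC-like, 107 and 116 in excitatory neuron-like and 155 and 144 in MGE interneuron-like cells. It rose at both steps by a like amount, 1.99 ± 0.218 (adjusted p = 2.65e-05) and 2.0 ± 0.198 (adjusted p = 1.36e-05), and was 20.4-fold higher in MGE interneuron-like than in RGC-like cells (adjusted p = 6.53e-08). Cajal-Retzius cell-like cells had the highest mean of the 7 classes, 176 ± 18.7 CPM, and did not overlap with MGE interneuron-like cells. Without cluster 7 the first step was 3.08 (adjusted p = 6.03e-06) and the difference of MGE interneuron-like from RGC-like cells 5.44 in place of 4.35. Meningeal fibroblast-like cells held 1 Srrm3 UMI in each library.

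Celf3 also rose at both steps, with 4.02 and 3.49 CPM in RGC-like, 29.2 and 40.5 in IPC-like, 67.8 in both libraries in excitatory neuron-like and 94.7 and 99.7 in MGE interneuron-like cells. Both steps passed the test, the first at 3.27 ± 0.215 (adjusted p = 1.18e-06) and the second at 1.1 ± 0.176 (adjusted p = 0.00046). Excitatory neuron-like cells were 20.7-fold and MGE interneuron-like cells 28.4-fold above RGC-like cells (log2 4.37 and 4.83). Without cluster 7 these differences were 5.59 and 6.05 and the first step 4.49. The difference between both neuronal classes, 0.46 (0.07 to 0.85), did not pass (adjusted p = 0.0977). In meningeal fibroblast-like cells replicate 2 held no Celf3 UMI, which allows up to 3.77 CPM (3 counts, counting error only), and replicate 4 held 1.

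Elavl4 was also highest in IPC-like cells. It was at 180 and 164 CPM in RGC-like, 793 and 861 in IPC-like, 292 and 307 in excitatory neuron-like and 271 and 273 in MGE interneuron-like cells. It rose by 2.32 ± 0.223 into IPC-like cells (adjusted p = 1.1e-05) and fell by 1.32 on the log2 scale into excitatory neuron-like cells (standard error 0.216, adjusted p = 0.000545). Excitatory neuron-like and RGC-like cells still differed 2.0-fold (log2 1.0 ± 0.215, adjusted p = 0.00176), and without cluster 7 this difference was 1.76 and the rise into IPC-like cells 3.08 on the log2 scale. With the called doublets kept the fall was -0.95 and lost its call (adjusted p = 0.0998), and it was called under the other 12 of 13 alternatives. Of the 7 classes Cajal-Retzius cell-like cells came next after IPC-like cells, at 541 and 435 CPM.

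Nova1 was the only member besides Ptbp1 that was called lower by the test in excitatory neuron-like than in RGC-like cells. It was at 56.1 and 67.3 CPM in RGC-like, 30.9 and 36.4 in IPC-like, 12.5 and 21.7 in excitatory neuron-like and 52.2 and 54.8 in MGE interneuron-like cells. The difference over both steps was -1.65 ± 0.225 (adjusted p = 5.57e-05). MGE interneuron-like cells were 2.99-fold above excitatory neuron-like cells (log2 1.58 ± 0.260, adjusted p = 0.00105) and not distinguishable from RGC-like cells (-0.07, interval -0.62 to 0.48, adjusted p = 0.831). Both single steps were near -0.8 (-0.82, adjusted p = 0.0143, and -0.83, adjusted p = 0.0162), but the first was called under 11 of 13 alternatives and the second under only 6. The difference between both neuronal classes lost its call at Leiden resolution 0.5 (1.1, adjusted p = 0.0702) and was called under the other 12. Without cluster 7 the first step was -0.91 (adjusted p = 0.00921) and the difference over both steps -1.74.

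Clusters of a class differed in Nova1. In IPC-like cells it was at 82.5 and 86.9 CPM in cluster 4 (24 and 45 cells, led by Unc5d, Eomes and Mfap4) and at 17.8 and 19.6 in cluster 0. In excitatory neuron-like cells cluster 14 (22 and 84 cells, led by Tafa1 and Tafa2) was at 22.6 CPM in replicate 2 and 113 in replicate 4, the largest disagreement between libraries among the clusters of this class for Nova1, while cluster 17 was at 30.2 and 21.2 CPM. The 3 RGC-like clusters lay between 42.6 and 84.3 CPM. An unnamed cluster of 53 and 90 cells with RGC and hem markers was at 143 and 120 CPM.

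Counted together, 5 of the 10 members were higher and 2 lower in IPC-like than in RGC-like cells, where 16.3% of all genes tested were called higher and 19.4% lower. From IPC-like to excitatory neuron-like cells 4 were higher and 4 lower, against 18.5% and 14.1% of all genes. Between excitatory neuron-like and RGC-like cells 7 were higher and 2 lower (all genes 28.0% and 25.7%), and between MGE interneuron-like and RGC-like cells 7 and 1 (all genes 24.8% and 27.2%). The members' median log2 differences in these 4 comparisons were 1.26, -0.25, 1.78 and 1.53, and those of all genes between -0.05 and 0.03. Between both neuronal classes only Nova1 was higher and only Rbfox1 lower in MGE interneuron-like cells, with 7.67% and 12% of all genes called. The comparisons share classes and are not independent of each other. Without cluster 7, IPC-like cells had 7 members higher and 2 lower than RGC-like cells, with Rbfox1 and Rbfox2 added, and the counts of the other comparisons with RGC-like cells were the same. The shares of all genes above are those of the main fit. Over all alternatives, that without cluster 7 included, from 2451 to 6184 genes were called between IPC-like and RGC-like cells, against 4372 in the main fit.

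**Figure D2:**
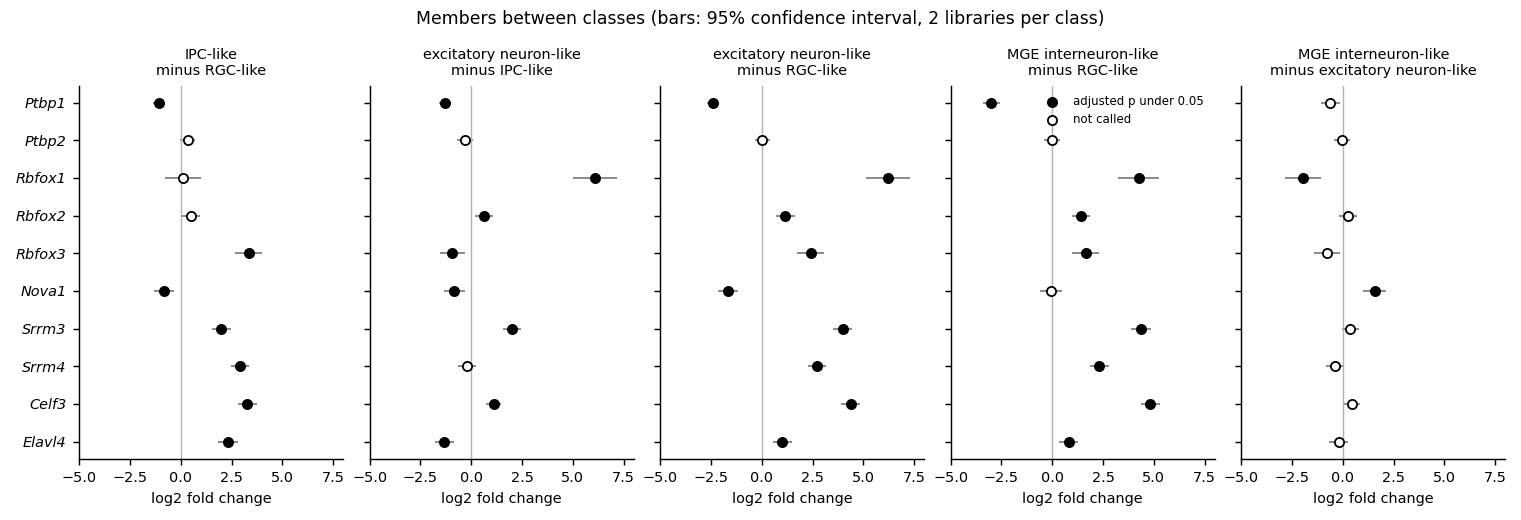
Log2 fold changes of the 10 genes in the 5 comparisons between classes, with 95% confidence intervals (2 libraries per class). Filled points passed an adjusted p of 0.05. The 3 comparisons with RGC-like cells held 5, 7 and 7 genes to the right of 0 that passed, and Ptbp2 was an open point in all 5 comparisons.

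To follow the order of the changes, cells of the excitatory lineage were placed in 10 bins of equal number per library along a neuronal score, the mean level of 10 neuronal genes (such as Tubb3, Dcx and Neurod2) minus that of 10 radial glial genes (such as Sox2, Hes5 and Pax6). Several of these genes also named the classes, so the bins refine the classes and are no independent support for them. Bins 1 and 2 held RGC-like cells in 97.8% to 100% of cases, bin 4 held IPC-like cells in 74.7% and 69.7%, and bins 6 to 10 held over 92% excitatory neuron-like cells. From 10 to 73 cells of a library lay within 0.05 score units of the edge between neighbouring bins.

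Ptbp1 fell from 88.3 and 92.3 CPM in bin 1 to 44.9 and 42.8 in bin 4 and 6.72 and 7.92 in bin 10. Ptbp2 went from 289 and 333 CPM in bin 1 to a mean maximum of 409 ± 30.3 in bin 4 and down to 230 and 237 in bin 10. The share of Ptbp2 among both rose from 76.6% and 78.3% to 97.2% and 96.8%. Along the score Ptbp2 RNA ended below its starting level in both libraries in CPM, which carry no TMM factors and were not tested between bins. Its share was higher in bin 10 than in bin 5 in both.

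The neuronal members did not rise together. Elavl4 had its highest mean in bin 4, at 856 ± 11.9 CPM, and ended at 164 ± 24.7. Rbfox3 had its highest mean in bin 4, at 671 ± 108 CPM after 0 and 4.49 in bin 1, and ended at 174 ± 47.1. Srrm4 had its highest mean in bin 5, at 953 ± 13.4 CPM, and ended at 553 ± 17.0, a fall of less than that of Elavl4 or Rbfox3. In replicate 2 Rbfox3 was highest in bin 5 (601 CPM, against 595 in bin 4), where Srrm4 was highest too. The order of these genes was not resolved in that library.

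Celf3 reached 64.1 and 57.2 CPM in bin 5 and then stayed between 64.0 and 76.3 from bin 6 on. Srrm3 passed from 2.71 and 2.88 CPM in bin 3 to 77.6 and 77.0 in bin 5 and reached 132 ± 13.0 in bin 9. Rbfox2 had its plateau from bin 5 on, between 530 and 598 CPM.

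Rbfox1 was the latest, with 308 and 162 CPM in bin 4, 1269 and 692 in bin 5 and 7121 and 7380 in bin 10, its maximum. Nova1 ran against the neuronal genes, from 59.2 and 65.3 CPM in bin 1 to 10.0 and 15.1 in bin 6, with a single raised value of 54.0 CPM in bin 8 of replicate 4 against 16.5 in replicate 2. For Elavl4, Rbfox3 and Srrm4 the bins of the maximum in both libraries lay at most 1 bin apart. With 5 bins the direction between first and last bin was the same for each of the 10 genes.

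**Figure D3:**
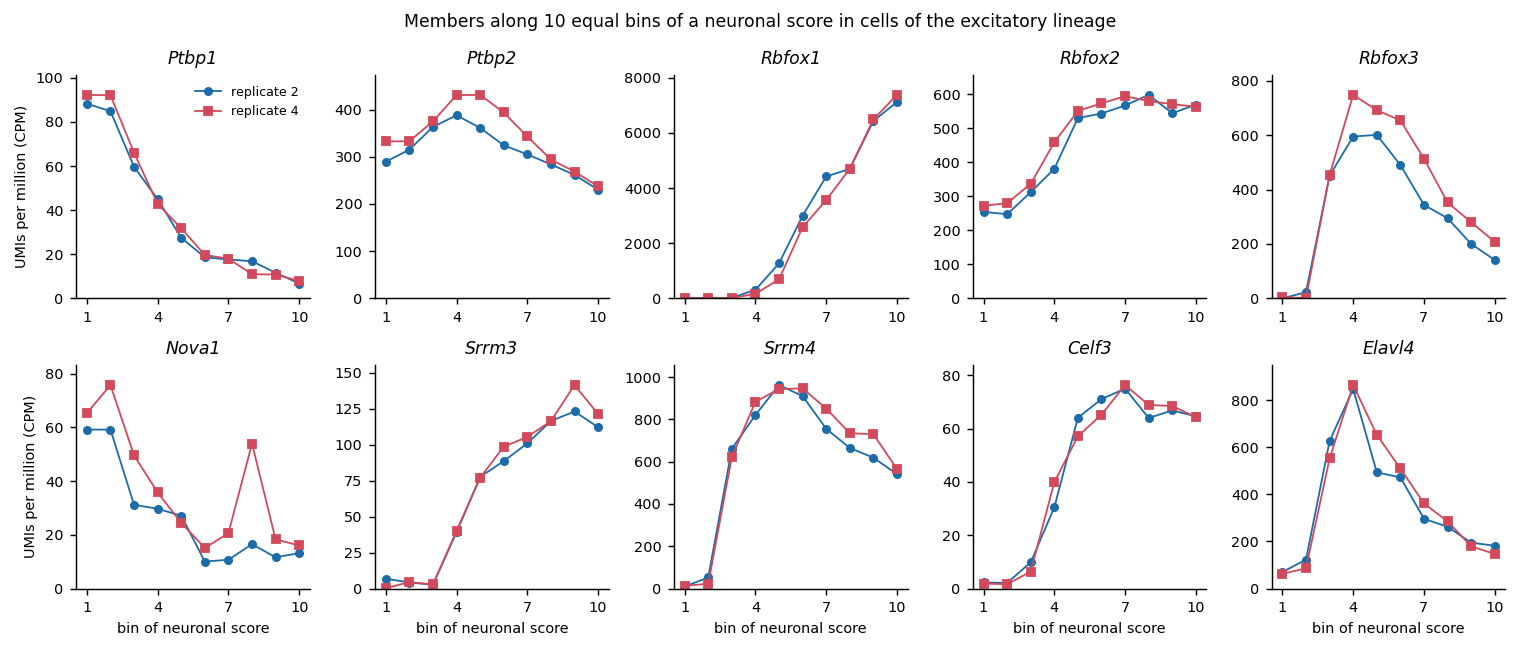
Levels (CPM, linear axes from 0) of the 10 genes in 10 bins of equal cell number along the neuronal score, from radial glia on the left to neurons on the right, for replicate 2 (circles) and replicate 4 (squares). In the mean of both libraries, Ptbp1 fell to 7.32 CPM in the last bin, Elavl4, Rbfox3 and Srrm4 passed through maxima in bins 4 and 5, and Rbfox1 climbed to 7250 CPM in bin 10.

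The clusters inside the classes showed the same order in finer steps. Among excitatory neuron-like clusters Rbfox1 ran from 1461 and 1295 CPM in cluster 3, which still had 4 of 8 IPC markers raised, to 11063 and 10371 CPM in cluster 17. Cluster 1, with 5 of 8 IPC markers raised, was at 2534 and 2570 CPM. Ptbp1 ran the other way, from 21.3 and 26.2 CPM in cluster 3 to 5.44 and 5.09 in cluster 17. Srrm4 was highest in cluster 3, at 1092 and 1016 CPM, and lowest in cluster 14, at 345 and 380. Leaving out clusters 1 and 3, both with IPC markers, the excitatory neuron-like level of Rbfox3 was 239 and 303 CPM and that of Elavl4 244 and 225, and 8 members were called against IPC-like cells, again 4 higher and 4 lower, in a fit that called 4597 of 12258 genes, 2547 of them higher. Among RGC-like clusters Ptbp1 was at 99.2 and 98.5 CPM in cluster 8, led by cell-cycle genes among others, and 67.2 and 77.7 in cluster 6.

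**Figure D4:**
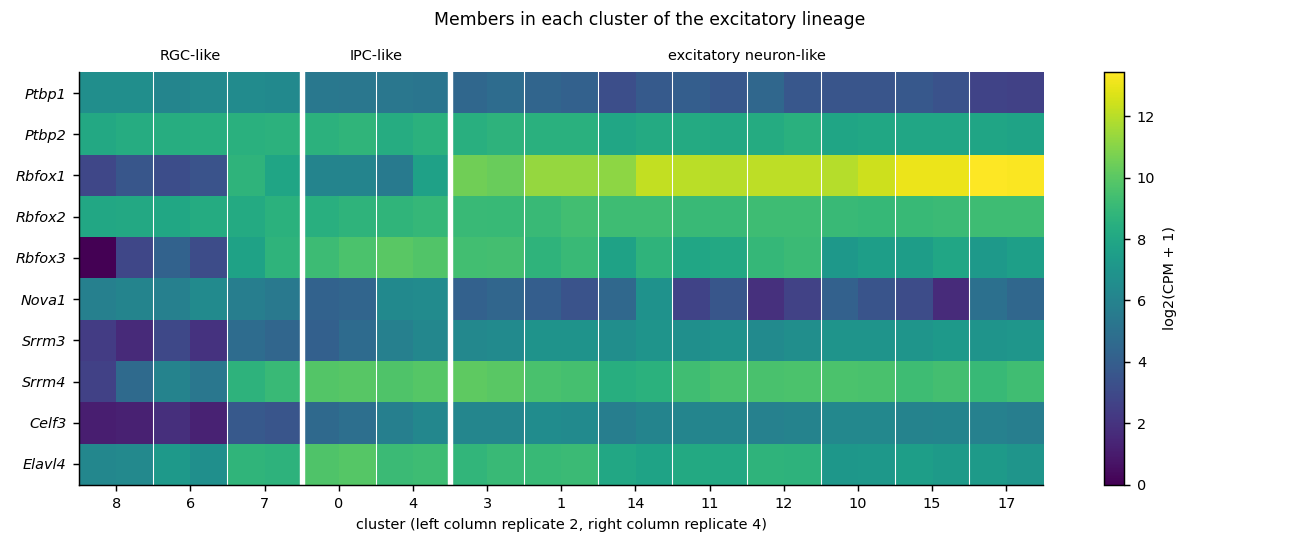
Level of each gene in the 13 clusters of the excitatory lineage as log2(CPM + 1), with replicate 2 on the left and replicate 4 on the right of each pair of columns. Thick lines part the classes, and clusters are ordered by Rbfox1 within a class. Cluster 7 stood apart from clusters 8 and 6 in Rbfox1, Rbfox3 and Srrm4 but not in Ptbp1.

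Genes with the most similar profile over the 14 sums of 7 classes are given as a description, since the sums of a class share their cells' identity. The closest to Rbfox3 was Srrm4 (r = 0.970). Srrm3 was closest to Kif5a, a neuronal kinesin (r = 0.996), Celf3 to Phactr3 (r = 0.992), Elavl4 to the receptor gene Fzd3 (r = 0.971) and Rbfox2 to Cpeb3 (r = 0.955). Ptbp1 was closest to Mrfap1 (r = 0.986), Ptbp2 to Spag9 (r = 0.971) and Rbfox1 to the neuropeptide gene Cck (r = 0.898). For Srrm4 the closest was Srrm4os (r = 0.983), its antisense gene, and the strand setting of the counting is not given in the sources used here, so reads of the pair could be shared.

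Genes of the arm known to act upstream of Ptbp1 and Srrm4 also changed between classes. The RGC-like class had 50.6 and 53.6 CPM of Rest and the IPC-like class 5.74 and 7.17, a log2 difference of -2.95 ± 0.214 (adjusted p = 1.91e-06). Rest was at 8.39 and 8.85 CPM in excitatory neuron-like but 20.9 and 23.4 in MGE interneuron-like cells, which were higher by 1.29 ± 0.246 (adjusted p = 0.00281). In MGE interneuron-like cells Srrm4 did not differ from excitatory neuron-like cells by the test (-0.40, interval -0.83 to 0.04, adjusted p = 0.195). Of the genes for the REST partners CTDSP1, CTDSP2 and CTDSPL, small phosphatases, all 3 were lower in IPC-like and in excitatory neuron-like than in RGC-like cells (log2 from -1.01 to -2.43 and from -1.18 to -2.79). Rcor1, the corepressor gene, was lower only in MGE interneuron-like cells against RGC-like cells (-0.60, adjusted p = 0.0394).

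The host transcript of a miR-124 gene, Mir124a-1hg, was at 3.05 and 2.78 CPM in RGC-like, 28.1 and 30.4 in IPC-like, 86.8 and 72.5 in excitatory neuron-like and 146 and 159 in MGE interneuron-like cells. It rose at each step (3.37 ± 0.186, adjusted p = 7.56e-07, and 1.59 ± 0.150, adjusted p = 1.63e-05). A second host, Mir124-2hg, did not differ between IPC-like and RGC-like cells by the test (0.25, adjusted p = 0.364) and rose only at the second step (1.73 ± 0.199, adjusted p = 4.03e-05). The 3′ libraries do not measure the mature microRNA. Of the 7 genes in this list 1 was higher and 4 lower in IPC-like than RGC-like cells (all genes 16.3% and 19.4%), and 2 were higher and 4 lower in excitatory neuron-like than RGC-like cells (all genes 28.0% and 25.7%).

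Of 3 genes with an exon whose repression by PTB proteins is known to set their transcript level, Dlg4, the gene of the synaptic scaffold PSD-95, was at 27.8 and 30.6 CPM in RGC-like and 76.0 and 79.8 in excitatory neuron-like cells and was higher by 1.61 ± 0.174 (adjusted p = 8.16e-06). Flna (-1.24 ± 0.163, adjusted p = 4.2e-05) and Bak1 (-1.61 ± 0.269, adjusted p = 0.000291) were lower. In that comparison 28.0% of all genes tested were called higher and 25.7% lower.

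Among PTB relatives, Ptbp3 was lower in excitatory neuron-like than in RGC-like cells (-0.90 ± 0.179, adjusted p = 0.00108) but higher in MGE interneuron-like cells, at 88.3 and 90.7 CPM, than in both RGC-like (0.96 ± 0.192, adjusted p = 0.00121) and excitatory neuron-like cells (1.86 ± 0.195, adjusted p = 3.66e-05). The PTB cofactor gene Raver2 was at 31.1 and 29.5 CPM in RGC-like cells and at 5.74 and 2.71 in IPC-like cells (-2.80 ± 0.314, adjusted p = 3.15e-05). MGE interneuron-like cells held only 1 Raver2 UMI in each library. Matr3, another partner of PTB proteins, was not called between these and RGC-like cells (-0.05, adjusted p = 0.821).

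Of the 20 tested regulators enriched in neural or muscle tissue, 10 were higher and 7 lower in excitatory neuron-like than in RGC-like cells (all genes 28.0% and 25.7%). The largest rises were those of Khdrbs2 (4.78 ± 0.458, adjusted p = 2.91e-06) and Celf6 (4.51 ± 0.458, adjusted p = 8.33e-06), the largest falls those of Mbnl3 (-5.66 ± 0.381, adjusted p = 1.92e-07) and Qk, a splicing regulator of glia (-2.66 ± 0.274, adjusted p = 5.32e-06). Celf5 rose between IPC-like and excitatory neuron-like cells (2.76 ± 0.181, adjusted p = 1.01e-06), and Celf4 was 4.34 ± 0.323 higher in MGE interneuron-like than RGC-like cells (adjusted p = 6.13e-07). Elavl2, a paralog of Elavl4, had the same peak in IPC-like cells, at 1604 and 1771 CPM, with a rise of 2.66 ± 0.317 (adjusted p = 4.85e-05) and a fall of -1.48 ± 0.304 (adjusted p = 0.00257).

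Between both neuronal classes Qk was the gene of the wider lists with the largest rise, and Rbm24, Raver2 and Khdrbs3 those with the largest falls. Qk was at 1172 and 1059 CPM in MGE interneuron-like and 137 and 146 in excitatory neuron-like cells (2.92 ± 0.278, adjusted p = 1.54e-05), and MGE interneuron-like cells did not differ from RGC-like cells by the test (0.25, adjusted p = 0.436). Khdrbs3 was at 56.2 and 63.8 against 257 and 286 CPM (-2.24 ± 0.163, adjusted p = 2.07e-06). Rbm24 had 700 and 649 UMIs in excitatory neuron-like cells and none in MGE interneuron-like cells of either library, which puts it at least 15.6-fold and 11.8-fold higher in excitatory neuron-like cells in replicates 2 and 4 (against a floor of 3 counts per library, edgeR adjusted p = 0.00797).

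Lists of general splicing factors had more genes called lower than higher in neuronal classes. Of 15 SR and SR-related genes none was higher and 10 were lower in excitatory neuron-like than in RGC-like cells, where 28.0% of all genes were called higher and 25.7% lower, and their median log2 difference was -0.58 against 0.03 over all genes. Of 15 hnRNP genes none was higher and 7 were lower (median -0.36). In MGE interneuron-like cells the counts were 10 of 15 and 11 of 15 lower, again with none higher, where 24.8% of all genes were called higher and 27.2% lower. These lists were compared with all genes by their counts and medians only.

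**Figure D5:**
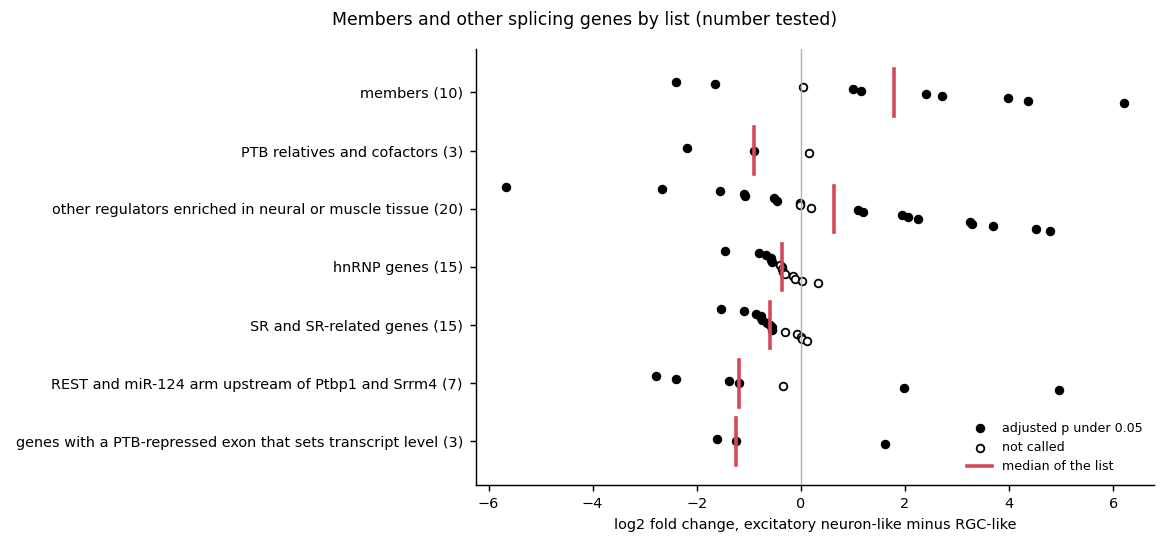
Log2 fold changes between excitatory neuron-like and RGC-like cells for the 10 members and 6 lists of other splicing genes (number tested in brackets). Filled points passed an adjusted p of 0.05 and red lines are list medians. The members had a median of 1.78, the SR genes -0.58 and the hnRNP genes -0.36.

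The non-neural classes give the background for these levels. In meningeal fibroblast-like cells Rbfox3, Srrm3, Srrm4, Celf3 and Elavl4 were at means from 0.665 to 17.4 CPM, each below its RGC-like mean. Rbfox1, by contrast, was at 240 and 254 CPM there, above both progenitor classes, and was found in 40.0% ± 2.95 of thinned meningeal fibroblast-like cells against 10.4% ± 1.29 of RGC-like cells (57.4% and 17.5% at full depth). In the 9 and 12 endothelial-like cells deep enough to thin the share was 11.1% ± 15.7. The part of free RNA in the meningeal value was not tested.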

How the data were processed

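Single-cell RNA-seq counts of 2 WT libraries (10x Genomics 3′ chemistry) were used as deposited; the study describes more libraries, which are not analysed here. The authors made the counts with Cell Ranger 7.0.0 on mm10, per the submitters' processing notes, and each value is a whole number of UMIs per gene and barcode. Intron and strand settings are not given in the sources used here. The 10 members, the wider gene lists and the tests were chosen with earlier results of these data known.

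Barcodes under 1000 genes or over 10% mitochondrial UMIs were dropped, and doublets called by Scrublet (12 and 48, 0.991% and 2.44%) were removed. Cells were clustered with scanpy 1.11.5 (2000 variable genes without the members and wider lists, 30 components, 20 neighbours, Leiden resolution 1). A cluster was named when at least 3 markers of a class were raised and its leading genes did not go against the name, so class names are rebuilt and may differ from those of the study. Raw counts were summed per library and class, and 14 sums of 7 classes entered 1 fit with edgeR 4.0.16 (R 4.3.3; TMM, filterByExpr, glmQLFTest, Benjamini-Hochberg over 12251 genes). The standard error was the log2 fold change divided by the root of F. The script recovered set changes when tested on simulated data. From the wider lists (66 genes, 63 tested), the 3 called genes with the largest change in each direction of each comparison were named by rule, and further genes were named by role after their values were seen. Likeness was Pearson's r of log2(CPM + 1). The likeness result for Nova1 is not reported here.

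The same replicate number marks the same library. Deviations of same-numbered sums from the class means correlated at 0.131 to 0.320 over the 6 pairs of compared classes, and a fit with the library as a block was an alternative. Floors and shares cover counting error only. The depth per library and class is given with the samples.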

Additional observations from a re-analysis of the deposited data

Results flagged for a closer look

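UMIs of the 10 genes were also found in barcodes that entered no comparison. Barcodes with under 1000 detected genes (442 in replicate 2 and 423 in replicate 4) held 426 and 347 UMIs of the members, or 608 and 355 CPM of their total. Cells in clusters without a name (142 and 176) held 2701 and 4027 UMIs, or 1183 and 1389 CPM. Both sets were noted because they lie outside the compared classes and exceed the 3 counts that a count of 0 allows.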

How the results depend on the processing

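Of 660 member fold changes with a test under the alternatives, 600 kept direction and call, 27 gained and 15 lost a call, and 18 turned sign. Levels and shares moved more often: 127 CPM values, 78 shares of cells (at 2000 UMIs or without thinning) and 4 log2 ratios (with 5 bins) moved by more than the SD between both libraries, and 153, 2 and 6 did not. Among called results, Nova1 between excitatory neuron-like and IPC-like cells turned to 0.15 at Leiden resolution 0.5. The other turned values had not been called. Srrm4 in that comparison was 0.034 at a mitochondrial limit of 5%. Ptbp2 between excitatory neuron-like and RGC-like cells was -0.052 with DESeq2 size factors, -0.052 by the DESeq2 Wald test and -0.077 without excitatory neuron-like clusters 1 and 3. Ptbp2 between MGE interneuron-like and RGC-like cells was 0.064 at a minimum of 500 genes, 0.092 at the 5% mitochondrial limit, 0.082 when doublets stayed in, 0.096 and 0.099 at Leiden resolutions 0.5 and 2, 0.052 with the members among the variable genes, 0.073 with classes and test on separate UMIs and 0.055 without RGC-like cluster 7. Ptbp2 between both neuronal classes was 0.016 with DESeq2 size factors, by the Wald test and on separate UMIs, and 0.064 without clusters 1 and 3, where Elavl4 was 0.14. The cause was not tested.

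The number of called genes moved by over 1.5 times from 4372 to 2451 (IPC-like against RGC-like, doublets kept), from 3993 to 6307 and from 6582 to 9904 (excitatory neuron-like against IPC-like and RGC-like, only the compared classes fitted). Members called between excitatory neuron-like and IPC-like cells were 5 with doublets kept in place of 8, and between both neuronal classes 5 with only those classes fitted in place of 2. With the library as a replicate block the latter count was 3, Rbfox3 being added (-0.75, adjusted p = 0.026), and no other member's call changed. Over all alternatives the genes called in these 2 comparisons ran from 3781 to 6307 (3993 in the main fit) and from 1802 to 3370 (2407 in the main fit). The member counts were not set against the calls over all genes in each single fit. With 1 library left out no test was possible; of 100 fold changes 96 moved by less than the spread between libraries. Rbfox1 between IPC-like and RGC-like cells ran from 0.07 to 4.70 and was called under 8 of 13 alternatives. With 2 libraries of 1 genotype, shallow classes such as MGE interneuron-like cells, with 13 and 10 Ptbp1 UMIs, limit what could be told apart.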
